A study of Mus musculus with 7 samples.

Results

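Genes for 8 transcription factors that define the hepatocyte were examined for binding of CTCF and of Rad21, a cohesin subunit, in mouse liver: Hnf4a, Foxa1, Foxa2, Foxa3, Cebpa, Cebpb, Onecut1 and Prox1. The rule names the genes and uses no measured value, although the list was drawn up with earlier results of these data known. Each gene's span in mouse genome build mm9 was extended by 50 kb on either side, and peaks lying wholly in this window were taken. The windows held 114 of 76683 CTCF peaks, 119 of 67369 Rad21 peaks and 74 of the 52436 CTCF sites that the authors had sorted into classes.

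The samples were livers of male Crl:CD1(ICR) mice aged 8 weeks, with no genetic change or treatment. There were 4 ChIP-seq libraries for CTCF and 3 for Rad21, and the authors pooled the reads of each factor before they called peaks. A peak therefore has 1 value per factor, no spread between livers can be given, and no test between groups was possible. Shares carry 95% Wilson intervals and fragment numbers carry 95% exact Poisson intervals, both of which cover counting error alone and not variation between mice. Liver holds other cells beside hepatocytes, and the lists contain no expression values by which the makeup of the tissue could be checked.

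As background, HNF4A is a nuclear receptor required for most hepatocyte genes, and FOXA proteins are pioneer factors that open chromatin at liver enhancers. C/EBP alpha and beta are leucine zipper factors of metabolic and acute phase genes, ONECUT1 (HNF6) is a cut-homeodomain factor, and PROX1 is a homeodomain factor of liver and lymphatic endothelium. Cohesin is a ring that extrudes chromatin loops and is halted by CTCF, most often where the motifs of paired CTCF sites face each other. Cohesin is also found at active enhancers and promoters without CTCF. Such cohesin-non-CTCF sites are called CNC sites, and sites with both proteins are called CAC sites. Topologically associating domains (TADs) are large stretches of chromatin that contact themselves more than their neighbours. The authors classed CTCF sites as anchors of such domains (TAD anchors), as anchors of loops predicted inside them (intra-TAD anchors), as other CAC sites or as lone CTCF sites.

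The CTCF motif has a direction, and its strand is part of how loop anchors were chosen. To show these directions, the motif is given for the strongest loop anchor in each window, or for the strongest classed CTCF site with a motif where the window has no anchor (Prox1). Capitals mark the 19 bases of the best motif match, on the strand deposited by the authors and read 5′ to 3′.
Hnf4a (intra-TAD anchor, chr2:163360818-163360846, + strand): cgttgGCCACTAGGAGGAGCCCTCgaagg
Foxa1 (TAD anchor, chr12:58677073-58677101, + strand): ggccgACCTGCAGGGGGCGCCGCAcagcg
Foxa2 (intra-TAD anchor, chr2:147874371-147874399, − strand): tcgcgGCCGACAGGGGGCGCCCTGtcact
Foxa3 (intra-TAD anchor, chr7:19592024-19592052, + strand): ttgtgACCACTAGGTGGTGCCTTTtgtcc
Cebpa (intra-TAD anchor, chr7:35954592-35954620, − strand): acatgCCCGGTAGGTGTCACTGCCaggag
Cebpb (intra-TAD anchor, chr2:167514163-167514191, + strand): cgtccTCCAGCAGGGGGCGGGCGGcggcc
Onecut1 (intra-TAD anchor, chr9:74718951-74718979, − strand): ccactGCCACTAGGTGGCGTGCTTcacac
Prox1 (other CAC, chr1:191940053-191940081, + strand): cagagGCCACAAGGGGGAGTTGGAttcct
In each of these 8 peaks the better match of both strands lay on the deposited strand. Transcription and motif point the same way at the anchors shown for Hnf4a, Foxa2 and Cebpb, and opposite ways at the other 5 sites.

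Sequences around CNC summits are given for the 2 genes with a CNC summit within 2 kb of a start (Hnf4a and Onecut1) and for the 2 genes whose nearest CNC summit has FOXA motif letters (Foxa1 and Cebpa). They are on the + strand of the genome, reach 100 bp to either side of the summit and have the FOXA letters, TGTTTAC or its reverse complement, in capitals. The Hnf4a sequence is shorter because 57 bases annotated as untranslated were left out.
Hnf4a (chr2:163373068-163373211, coding exon): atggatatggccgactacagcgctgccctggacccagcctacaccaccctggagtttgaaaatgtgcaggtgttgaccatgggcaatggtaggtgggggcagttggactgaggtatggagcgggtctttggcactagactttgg
Onecut1 (chr9:74714787-74714987, intron): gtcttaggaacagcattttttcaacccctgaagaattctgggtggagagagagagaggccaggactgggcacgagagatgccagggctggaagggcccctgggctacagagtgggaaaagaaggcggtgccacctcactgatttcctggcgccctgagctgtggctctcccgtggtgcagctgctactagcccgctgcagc
Foxa1 (chr12:58635911-58636111, intergenic): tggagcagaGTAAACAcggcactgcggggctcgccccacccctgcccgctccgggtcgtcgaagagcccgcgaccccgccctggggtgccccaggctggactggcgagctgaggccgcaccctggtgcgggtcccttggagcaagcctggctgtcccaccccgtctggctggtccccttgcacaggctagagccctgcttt
Cebpa (chr7:35907947-35908147, intergenic): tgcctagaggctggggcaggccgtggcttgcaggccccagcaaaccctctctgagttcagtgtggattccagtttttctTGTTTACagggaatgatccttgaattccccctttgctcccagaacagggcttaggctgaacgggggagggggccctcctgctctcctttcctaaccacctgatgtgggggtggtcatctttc
The 2 sequences at starts held none of the motif letters searched, which says nothing of the factors themselves.

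The density of Rad21 peaks lay above the median of protein-coding genes in each of the 8 windows, but to very different degrees. The number of Rad21 peaks was 25 at Hnf4a, 6 at Foxa1, 9 at Foxa2, 11 at Foxa3, 16 at Cebpa, 19 at Cebpb, 16 at Onecut1 and 17 at Prox1. The median of the 8 was 16, against 6.0 over the windows of 22367 protein-coding genes. CTCF peaks numbered 27 at Hnf4a, 5 at Foxa1, 7 at Foxa2, 16 at Foxa3, 11 at Cebpa, 15 at Cebpb, 19 at Onecut1 and 14 at Prox1, with a median of 14.5 against 8.0 over all genes. Foxa1 and Foxa2 thus had fewer CTCF peaks than the median gene. Per 100 kb Foxa1 remained below the median of all genes (4.74 and 5.55), whereas Foxa2, with 6.72, was above it.

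Windows differ in length, from 101.5 kb at Cebpb to 166.1 kb at Hnf4a, so densities were also compared. Cebpb had 18.7 Rad21 peaks per 100 kb, which placed it at percentile 99.7 of all protein-coding genes. Cebpa followed with 15.6 (percentile 98.4) and Hnf4a with 15.1 (percentile 97.8). The lowest density of Rad21 was 5.69 per 100 kb at Foxa1 (percentile 59.0) in a window of 105.5 kb, close in length to that of Cebpb. The median over all genes was 4.55 per 100 kb.

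**Figure D1:**
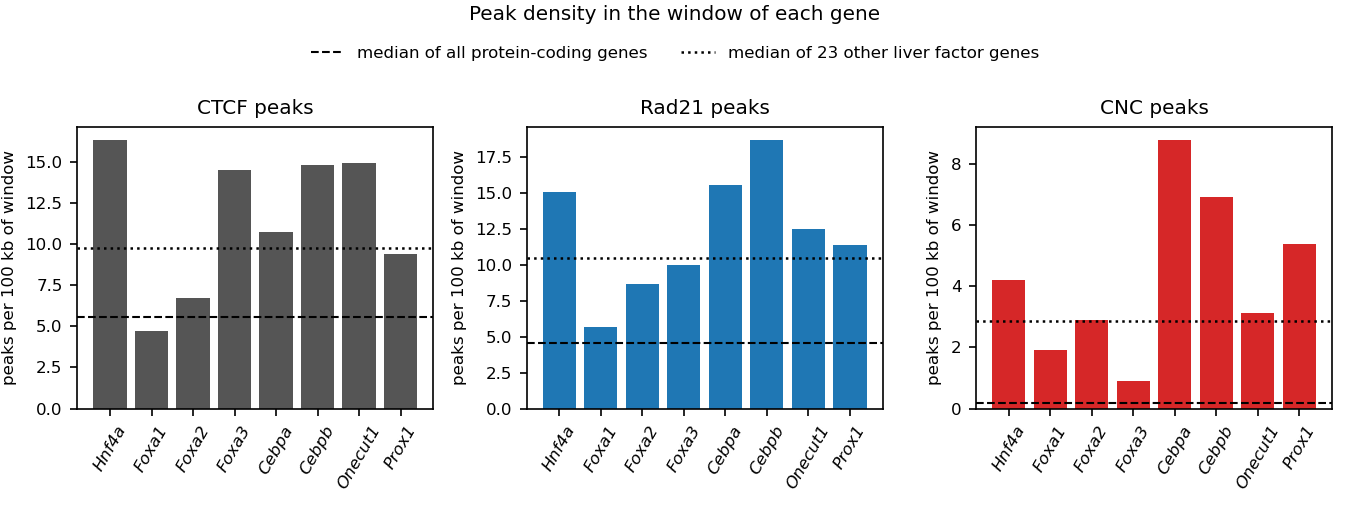
Peaks per 100 kb of window (vertical axes, starting at 0) for CTCF, Rad21 and CNC peaks at each of the 8 genes (bars), with the median of all protein-coding genes (dashed) and of 23 other liver factor genes (dotted). The CNC density reached 8.77 at Cebpa and 0.907 at Foxa3, and each of the 8 bars stands above the dashed line of 0.173.

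Rad21 peaks without CTCF were a larger share of Rad21 peaks in these windows than in the list as a whole. CNC peaks made up 41 of 119 Rad21 peaks, or 34.5% (26.5 to 43.4%), against 22.7% of all pooled Rad21 peaks. The count was 7 at Hnf4a, 2 at Foxa1, 3 at Foxa2, 1 at Foxa3, 9 at Cebpa, 7 at Cebpb, 4 at Onecut1 and 8 at Prox1. Each of the 8 windows had at least 1, as did 50.2% of the windows of protein-coding genes, whose median was 1.0. By density, Cebpa lay at percentile 99.9 of all genes, Cebpb at 99.5, Prox1 at 98.2 and Hnf4a at 95.9, while Foxa3 lay at 62.9. The share of CNC peaks ran from 9.09% at Foxa3 (1.62 to 37.7%) to 56.2% at Cebpa (33.2 to 76.9%), and these intervals overlap because each window holds few peaks.

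The reverse share was close to the background. Of the 114 CTCF peaks, 79 had a Rad21 peak (69.3%, 60.3 to 77%), compared with 67.3% of all CTCF peaks. Both shares depended on the 1 bp overlap that was required. With a reciprocal overlap of 50%, CNC peaks made up 53.8% in the windows and 33.7% in the whole list, and CTCF peaks with Rad21 made up 48.2% in the windows and 58.2% in the whole list. The difference in CNC share narrowed to 26.3% against 22.7% when the windows were cut to 10 kb on either side, where 15 of 57 Rad21 peaks were CNC peaks.

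Hnf4a lies on the + strand of chromosome 2, chr2:163332544-163398646, with 7 annotated starts in GENCODE vM1. As background, the gene has a distal promoter used in other tissues and a downstream promoter used in adult liver. The strongest CNC peak of the window lay at the downstream group of starts, at chr2:163372948-163373359, with its summit 187 bp from a start and 40.6 kb from the most 5′ one. Its score, which rises with the significance of a peak in the authors' calling, was 236, and 79 Rad21 fragments (62.5 to 98.5) covered the summit over a local background of 17.9. At the distal promoter the Rad21 summit lay 10 bp from a start, overlapped 2 weak CTCF peaks of scores 31 and 98, and had a score of 67 and 33 fragments (22.7 to 46.3). The intervals of these fragment numbers do not overlap, although the background of 9.74 at the distal promoter was also lower. The downstream starts were not free of CTCF. Weak CTCF peaks with scores of 66 and 96 lay 78 and 131 bp from 2 other starts of that group, and a co-bound Rad21 peak with a score of 75 lay 161 bp from the last start.

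The other 6 CNC peaks of Hnf4a were weak, with scores of 33 to 65. The strongest CTCF peak, chr2:163298078-163298722, had a score of 13047 and 1223 fragments (1155 to 1294), and lay 34.1 kb upstream of the 5′ start in a coding exon of 2310001K24Rik and 121 bp from the start of Fitm2. The strongest co-bound Rad21 peak had a score of 2168 and lay 79.9 kb downstream of the 5′ start. Both intra-TAD anchors inside the gene lay between the distal and the downstream promoter, 25.3 and 28.3 kb from the 5′ start. They had CTCF scores of 3008 and 5578 and (+) motifs. Past the 3′ end, 3 more intra-TAD anchors with (−) motifs lay 85.5, 91.1 and 92.7 kb from the 5′ start, with CTCF scores of 2304, 5009 and 3696. The downstream starts therefore lay between a (+) anchor on their left and a (−) anchor on their right, whereas the anchors next to the distal start on either side both had (+) motifs.

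Foxa1, chr12:58641618-58647108 on the − strand, had the fewest peaks. Of its 5 CTCF peaks 2 were TAD anchors. The one in the Foxa1 intron, 936 bp downstream of the start, had a (−) motif, a CTCF score of 2005 and 419 fragments (380 to 461). The other, chr12:58676809-58677374, lay 30.0 kb upstream in a coding exon of Ttc6, 282 bp from a start of that gene, with a (+) motif and a score of 7088, the highest of the window. The pair is divergent, and the Foxa1 start lies between its members. The strongest co-bound Rad21 peak (score 1342) overlapped the Ttc6 anchor. Both CNC peaks lay downstream of the gene, at 11.1 kb (score 106, 49 fragments, 36.3 to 64.8) and at 30.4 kb (score 263, 53 fragments, 39.7 to 69.3).

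At Foxa2, chr2:147868613-147872705 on the − strand, CTCF and Rad21 were strong just upstream of the gene. An intra-TAD anchor, chr2:147874166-147874852, lay 1.70 kb upstream of the 5′ start with a CTCF score of 3933 and a (−) motif, which points toward the gene. The Rad21 peak on it was the strongest of the window, with a score of 2977 and 441 fragments (401 to 484). The strongest CTCF peak, of score 5540, lay 35.5 kb upstream and was classed as other CAC. Of 3 CNC peaks downstream, the strongest, chr2:147864325-147864753, had a score of 240 and 92 fragments (74.2 to 113), 8.24 kb from the 5′ start. The other scores were 69 and 176.

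Foxa3 lies on the − strand at chr7:19598631-19608887, among 7 other protein-coding genes in the window, and its start coincided with an anchor. The intra-TAD anchor at chr7:19608668-19609327 had its CTCF summit 145 bp upstream of the start, a score of 6388 and 693 fragments (642 to 747), with a (−) motif. The Rad21 peak there was the strongest of the window (score 4804, 605 fragments, 558 to 655). Downstream of the gene, an intra-TAD anchor with a (+) motif in an untranslated exon of Irf2bp1 had a CTCF score of 11838 and 1274 fragments (1205 to 1346). Of the other 3 intra-TAD anchors, 1 lay 5.96 kb upstream in an intron of Sympk with a score of 2287 and a (−) motif. The last 2 lay 45.4 and 46.1 kb upstream in introns of Rsph6a with scores of 3597 and 390 and (+) motifs. The only CNC peak was weak, with a score of 36 and 18 fragments (10.7 to 28.4), at 54.9 kb from the start. Of all CNC peaks in the liver list 8.78% scored lower.

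Cebpa, chr7:35904312-35906945 on the + strand, had the most CNC peaks, and 7 of the 9 formed a run downstream of the gene between 3.74 and 48.9 kb from the start. Their scores were 110, 171, 73, 188, 374, 281 and 250 in that order along the chromosome, and their fragments were 113, 121, 52, 54, 116, 87 and 145. The 2 upstream CNC peaks had 29 and 36 fragments, so that the downstream run held the higher numbers. The local background was also higher in the run, up to 51.4, than at the upstream peaks (10.2 and 6.44), and by fold the upstream peak at 11.5 kb, with 4.98, exceeded all 7 peaks of the run (2.18 to 4.78). The strongest, chr7:35928646-35929624, ranked 61 of 15321 among all CNC peaks by score. CTCF stood at the Cebpa start itself, with the summit 65 bp upstream, a score of 7753, a (+) motif and 970 fragments (910 to 1033). A weaker CTCF site with a (−) motif and a score of 1323 lay 1.09 kb upstream, and both sites were classed as other CAC and not as anchors. A single broad Rad21 peak, chr7:35902961-35904616, covered both. Its summit lay 1.07 kb upstream, next to the weaker CTCF site, and it reached a score of 198, with 127 fragments (106 to 151) over a local background of 46.2. The strongest Rad21 peak (score 3364, 533 fragments, 489 to 580) lay at the 1 intra-TAD anchor, 50.3 kb downstream, where CTCF had a score of 5932 and a (−) motif. The last CNC peak of the run was the neighbour of that anchor, and 2 co-bound Rad21 peaks with scores of 114 and 200 lay within the run.

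Cebpb, chr2:167514415-167515918 on the + strand, had its strong sites at and upstream of the start, within introns of the Tmem189 gene in this annotation. An intra-TAD anchor with a (+) motif had its CTCF summit 225 bp upstream of the start, with a score of 8053 and 1046 fragments (984 to 1111). Another (+) intra-TAD anchor 3.59 kb upstream had a CTCF score of 2973 and carried the strongest Rad21 peak of the window (score 4515, 660 fragments, 611 to 712). Rad21 at the start was lower, with 229 fragments and a score of 585 on the anchor 216 bp upstream, and 129 fragments (108 to 153) and a score of 116 at a separate summit 173 bp downstream. A divergent pair of TAD anchors lay farther upstream, the (−) one at 13.6 kb (CTCF score 1901) and the (+) one at 8.07 kb (score 1663). Between them stood (−) intra-TAD anchors at 10.1 and 8.77 kb, with scores of 505 and 5598. The last 2 anchors, (+) intra-TAD anchors with scores of 1825 and 1471, lay 48.5 and 47.4 kb upstream. The 7 CNC peaks ran from 36 to 183 in score. The strongest, chr2:167535951-167536502, lay 21.9 kb downstream with 61 fragments (46.7 to 78.4).

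Onecut1, chr9:74709728-74737591 on the + strand, had 5 anchors within the gene. The 3 intra-TAD anchors, at 4.74, 6.15 and 9.26 kb from the 5′ start, had (−) motifs and CTCF scores of 1712, 2758 and 3681. The 2 TAD anchors followed at 14.6 kb with a (−) motif (score 620) and at 20.2 kb with a (+) motif (score 273), and the latter lacked a pooled Rad21 peak. The gene has 2 annotated starts, and a CNC summit lay 596 bp from the downstream one, at chr9:74714761-74715008. It was weak in score (54), with 66 fragments (51 to 84.0) over a background of 31.4, and it lay between Rad21 peaks of the first 2 intra-TAD anchors. The first of these anchors was itself at the downstream start, with its CTCF summit 175 bp and its Rad21 summit 116 bp away. That Rad21 peak was stronger than the CNC peak, with a score of 350 and 130 fragments (109 to 154). At the 5′ start the Rad21 summit was 80 bp away with a score of 67. The strongest CNC peak (score 248, 72 fragments, 56.3 to 90.7) lay 58.5 kb downstream, and the strongest Rad21 peak with CTCF (score 1801, 244 fragments) lay 43.2 kb downstream.

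Prox1, chr1:191945660-191994559 on the − strand, differed from the other 7 genes in having no anchor in its window. Its highest CTCF score was 1000, with 134 fragments (112 to 159) at 54.5 kb downstream of the start. The CTCF summit nearest to the start was 56 bp away and had a score of 106. Rad21 with CTCF was weak throughout, from 89 to 273 in score. The strongest CNC peak, chr1:191930181-191931378, exceeded every co-bound Rad21 peak of the window in score (330) and lay 63.5 kb downstream of the start, past the 3′ end of the gene. It had 82 fragments (65.2 to 102) and ranked 113 of all CNC peaks. Cebpa and Prox1 had the highest CNC scores of the 8 genes, and the Prox1 window was the only one of the 8 in which a CNC peak had the highest Rad21 score. By fragments and by fold a co-bound peak was the highest at Prox1, with 85 fragments at the start and a fold of 6.60 at 93.9 kb downstream, against 82 fragments and at most 5.60 at CNC peaks.

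**Figure D2:**
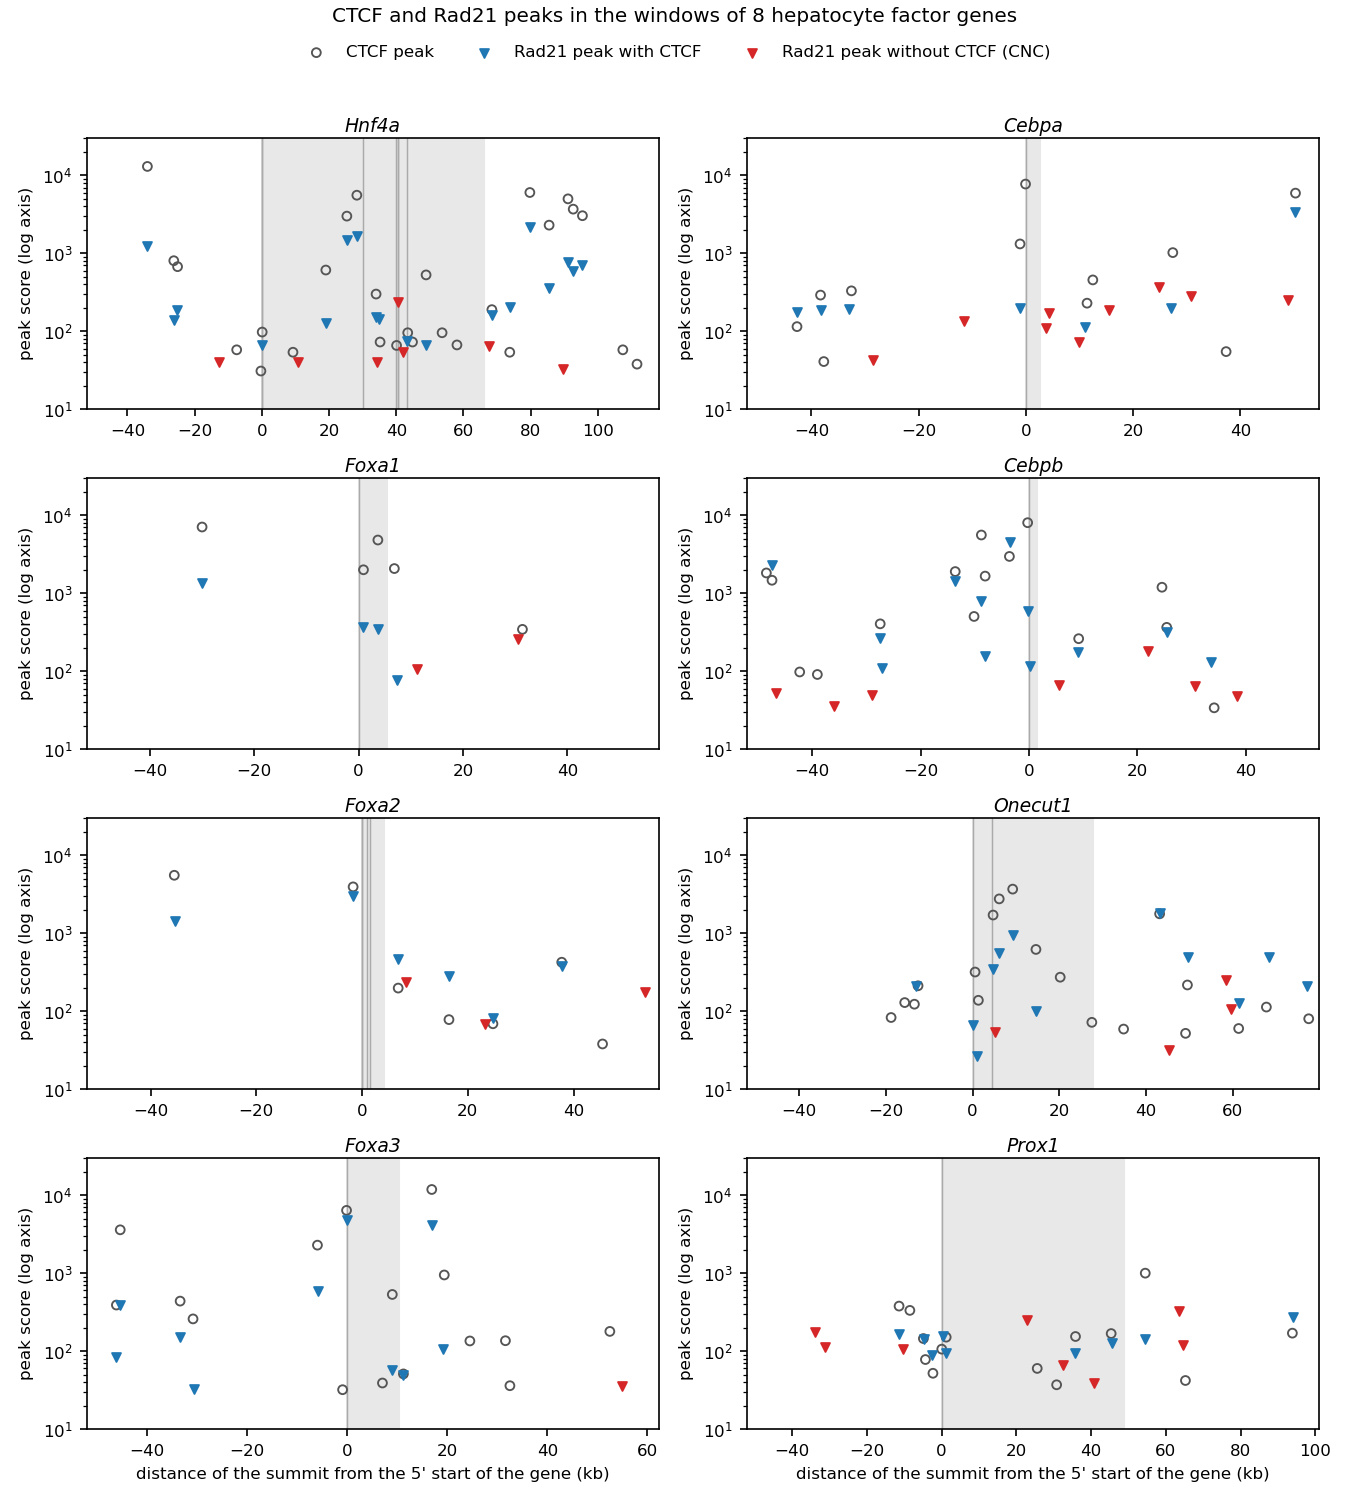
Deposited peak score (vertical, log axis) against the distance of the summit from the most 5′ start in kb, in the direction of transcription (horizontal), for CTCF peaks (open circles) and Rad21 peaks with and without CTCF (blue and red triangles). Shading marks the gene span and thin lines its starts. At Cebpa the red triangles form a run downstream, and at Prox1 no symbol exceeds a score of 1000.

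Fragment numbers at the summit were compared within Rad21, since the score grows with depth and falls with background. The median over the 8 windows was 49.0 fragments at 41 CNC peaks, with quartiles of 39.0 and 66.0, and 76.0 at 78 co-bound peaks, with quartiles of 53.0 and 156. In the whole list the medians were 29.0 and 58.0. Co-bound peaks had the higher median of fragments at 7 of the 8 genes. Cebpa was the exception, with a median of 87.0 fragments at 9 CNC peaks and 58.0 at 7 co-bound peaks, but this order turned with the measure. By score the Cebpa medians were 171 at CNC and 193 at co-bound peaks, and by fold over background they were 2.87 and 4.67. By fold the CNC median was instead the higher one at Foxa1 (5.07 and 4.37) and Prox1 (3.79 and 3.32). The co-bound peaks reached 301 fragments at Hnf4a, 167 at Foxa1, 441 at Foxa2, 605 at Foxa3, 533 at Cebpa, 660 at Cebpb, 244 at Onecut1 and 85.0 at Prox1, whereas the highest CNC peak of any window, at Cebpa, had 145.

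The order of CNC peaks of these genes against CNC peaks at large depended on the measure. The local background at these 41 peaks was also higher, with a median of 14.1 against 7.42 over all CNC peaks. The score medians had the same order as the fragments, 106 in the windows and 65.0 in the whole list. By fold over background the order was the opposite, 3.03 in the windows and 3.35 in the whole list, and likewise for co-bound peaks (4.71 and 5.97). For co-bound peaks the score medians, 199 in the windows and 245 in the whole list, also had the opposite order to the fragments (76.0 and 58.0). By score, the strongest CNC peak exceeded 97.4% of all CNC peaks at Hnf4a, 98.3% at Foxa1, 97.6% at Foxa2, 99.6% at Cebpa, 94.6% at Cebpb, 97.9% at Onecut1, 99.3% at Prox1 and 8.78% at Foxa3. The strongest of several peaks ranks high among single peaks by its choice, and Foxa3 had a single CNC peak.

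**Figure D3:**
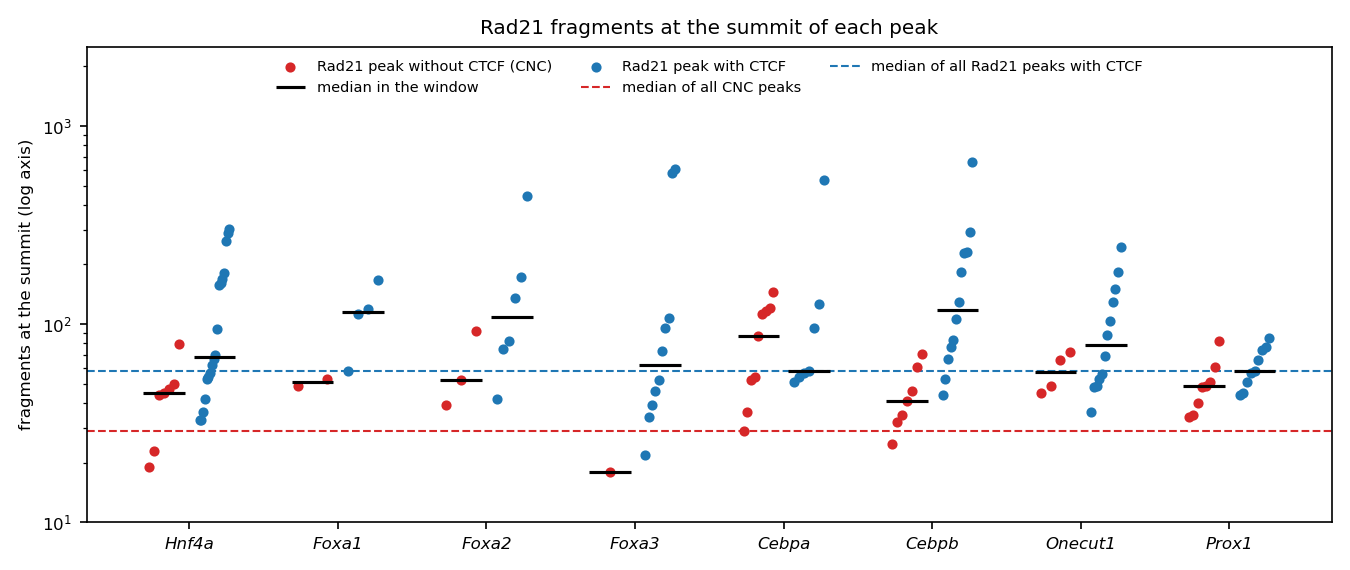
Rad21 fragments at the summit (vertical, log axis) for every Rad21 peak of the 8 windows, without CTCF (red) or with CTCF (blue), with the median in each window (black bars) and in the whole list (dashed lines at 29.0 and 58.0). The median of the red points exceeds that of the blue points at Cebpa (87.0 and 58.0), an order that turns by score (171 and 193) and by fold (2.87 and 4.67), and is below it at the other 7 genes.

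CNC peaks of these genes lay outside protein-coding genes more often than CNC peaks at large. Of the 41 summits, 29 were intergenic (70.7%, 55.5 to 82.4%), against 41.8% of all CNC peaks. For co-bound Rad21 summits the share was 39 of 78 (50%, 39.2 to 60.8%), against 43.5%. Within 1 kb of a protein-coding start lay 2 CNC summits (4.88%, 1.35 to 16.1%, against 14.3%) and 17 co-bound ones (21.8%, 14.1 to 32.2%, against 26.5%). The windows of Foxa2, Cebpa, Onecut1 and Prox1 held no other protein-coding gene, and the CNC summits of Cebpa were all intergenic. The intergenic share of the window length was not computed, so the part of window makeup in these shares was not tested. The nearest CTCF summit was a median of 2.42 kb from a CNC summit, with quartiles of 1.41 and 3.8 kb, compared with a median of 3.59 kb over all CNC peaks. CTCF peaks were also denser in these windows, with a median of 12.6 per 100 kb against 5.55 over all genes. Whether the distance differs beyond this density was not tested. A distance within 1 kb was found at 8 of 41 (19.5%), close to the 22.6% of all CNC peaks. Where both proteins were present, the Rad21 summit lay a median of 47.0 bp from the CTCF summit. At 48 such peaks with a motif strand it was shifted by a median of 21.5 bp toward the 3′ side of the motif, and 33 of the 48 shifts had that direction (68.8%). In the whole list the medians were 35.0 bp and 17.0 bp, and 67.8% of shifts had that direction.

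Starts of these genes were bound by both proteins. A Rad21 summit lay within 2 kb of a start at 8 of 8 genes, compared with 56.0% of all protein-coding genes, and a CTCF summit at 8 of 8, compared with 59.4%. Fragment numbers at the peak nearest to a start differed widely. For Rad21 the order of the genes depended on the measure and on the peak taken. The Rad21 peak nearest to a start had 605 fragments at Foxa3 and 441 at Foxa2, between 85 and 129 at Prox1, Foxa1, Cebpa and Cebpb, 56 at Onecut1 and 33 at Hnf4a. The fragment intervals of the nearest peaks at Foxa3 and Foxa2 did not overlap each other or those of the other 6 genes. Those of Foxa1, Cebpa and Cebpb overlapped. The interval of Prox1 (67.9 to 105) also overlapped that of Foxa1. That of Onecut1 (42.3 to 72.7) overlapped that of Prox1, and that of Hnf4a (22.7 to 46.3) overlapped that of Onecut1. By fold over background, the nearest peaks were highest at Foxa3 (15.6), Foxa2 (11.6) and Foxa1 (4.59). Hnf4a followed with 3.17, above Prox1 (2.99), Cebpa (2.71), Onecut1 (2.41) and Cebpb. The background was 60.9 at Cebpb and 9.74 at Hnf4a. Slightly farther from a start, Rad21 peaks had 229 fragments at Cebpb (216 bp), 130 at Onecut1 (116 bp) and 79 at Hnf4a (187 bp). The CTCF peak nearest to a start had 1046 fragments at Cebpb, 970 at Cebpa, 693 at Foxa3, 503 at Foxa2, 419 at Foxa1, 366 at Onecut1, 59 at Prox1 and 35 at Hnf4a. A CNC summit lay within 2 kb of a start at 2 of 8 genes, Hnf4a and Onecut1, compared with 11.7% of all genes. The count was 4 with a reciprocal overlap of 50% or with summits within 100 bp (23.4 and 29.6% of all genes) and 1 at a score of at least 100 (7.00%).

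The authors had placed 74 of the 114 CTCF peaks in classes, and 40 had none because the class list held peaks found in at least 2 livers. TAD anchors numbered 6 of the 74 (8.11%, 3.77 to 16.6%), against 11.2% of the whole class list. Intra-TAD anchors numbered 21 (28.4%, 19.4 to 39.5%), against 17.3%. The class of other CAC sites had 37 members (50%, 38.9 to 61.1%, against 51.4%), and the class of lone CTCF sites had 10 (13.5%, 7.51 to 23.1%, against 20.1%). Of these 10, the weak sites at Hnf4a and Foxa2 with scores of 96 and 78 overlapped a pooled Rad21 peak. An intra-TAD anchor lay in the window of 6 of 8 genes (all but Foxa1 and Prox1), compared with 49.3% of protein-coding genes. A TAD anchor lay in the window of 3 of 8 (Foxa1, Cebpb and Onecut1), compared with 33.9%. Motif and motif strand had entered the authors' choice of both kinds of anchor, and peak scores that of intra-TAD anchors, so these properties are no independent result. The authors also kept only intra-TAD loops that held a start of a protein-coding or a liver-expressed noncoding gene. How far that rule bears on the intra-TAD share of 28.4% in windows around genes was not tested. TAD anchors were chosen by their distance to a domain boundary.

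Flags deposited with each site record overlap with peaks of Stag1 and Stag2, alternative cohesin subunits, and of topoisomerase II beta (Top2b) in public liver data. Among the 27 anchors 22 carried the Stag1 flag (81.5%, 63.3 to 91.8%), 24 the Stag2 flag (88.9%, 71.9 to 96.1%) and 17 the Top2b flag (63.0%, 44.2 to 78.5%). Over all anchors the shares were 92.8, 96.6 and 74.9%. Each share in the windows was thus below that of all anchors. The interval for Top2b includes the share of all anchors, while those for Stag1 and Stag2 end just below it. The names of the flags rest on the column order in the study's own listing, as the file has no header. The (−) TAD anchor in the Onecut1 gene carried only the Stag2 flag. The (+) one there and the (−) intra-TAD anchor 10.1 kb upstream of Cebpb carried none of the 3, and both also lacked a Rad21 peak, as did the (+) anchor 48.5 kb upstream of Cebpb. Of the 27 anchors 12 had (+) motifs.

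The nearest anchors that do not overlap the gene's span were then compared for motif direction on either side. This rule passes over the anchors at the starts of Foxa3 and Cebpb, whose peaks reach into the gene and whose strands are those of the anchors used in their place. The left anchor had a (+) motif and the right one a (−) motif, as in a convergent loop, at 6 of 8 genes, compared with 31.9% of all protein-coding genes. The interval between these anchors was 23.3 kb at Foxa3, 140 kb at Hnf4a, 144 kb at Cebpa, 202 kb at Foxa2, 207 kb at Cebpb and 836 kb at Prox1. At Prox1 both were TAD anchors, 75.6 and 711 kb from the gene. Foxa1 had (+) motifs on both sides at 282 and 29.7 kb. Onecut1 had (+) motifs on both sides at 575 and 160 kb when its own 5 anchors inside the gene were left aside. With these counted, both Onecut1 starts lay between a (+) anchor on the left and a (−) anchor on the right, the latter 4.53 and 1.38 kb away, so the count of 6 depends on taking anchors outside the gene alone. The Foxa1 start lay between a (−) anchor on the left and a (+) anchor on the right. Convergent direction was part of the rule for intra-TAD anchors, and the pairs of the authors' predicted loops were not used here, so these intervals are neighbours in the class list and not loops.

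**Figure D4:**
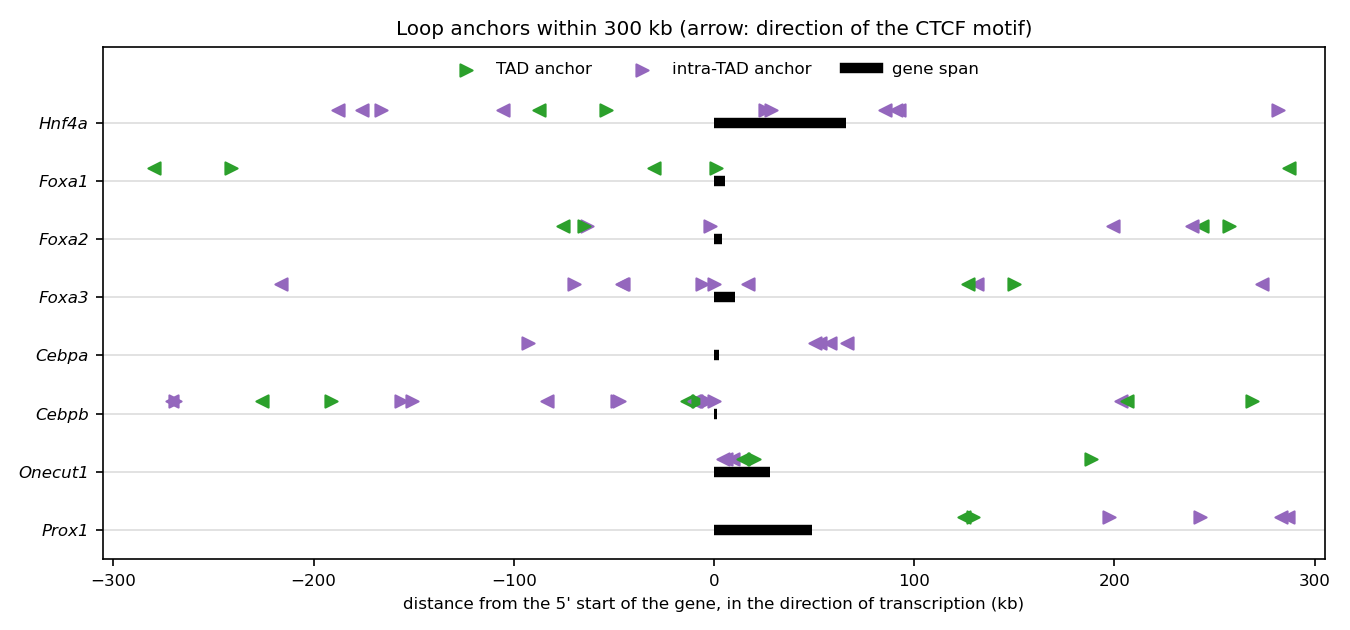
Positions of TAD anchors (green) and intra-TAD anchors (violet) within 300 kb of each gene, in kb from the 5′ start in the direction of transcription, with arrows for the direction of the CTCF motif and black bars for gene spans. Foxa3 and Cebpb have an anchor at the start, Hnf4a, Foxa1 and Onecut1 have anchors inside the gene, and Prox1 has none within its window.

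Letters of liver factor motifs were searched within 100 bp of each Rad21 summit on both strands: TGTTTAC or TGTTTGC for FOXA, CAAAGTCCA, CAAAGGTCA or CAAAGTTCA for HNF4, TTGCNNAA for C/EBP, and ATTGATT or ATTGATC for ONECUT. At least 1 was present at 14 of 41 CNC summits (34.1%, 21.6 to 49.5%), compared with 28.0% of all CNC peaks and 17.8% of positions 2 kb to either side of them. At the 78 co-bound summits of the windows 10 had one (12.8%, 7.12 to 22.0%), compared with 17.0% of all co-bound Rad21 peaks. With co-binding defined by summits within 100 bp, the CNC share with a motif was 24.2% in the windows and 24.1% in the whole list, which leaves almost none of the difference seen with the 1 bp rule. The order against all CNC peaks turned within 50 bp of the summit (7.32% and 14.3%) and in windows of 10 kb on either side (2 of 15, or 13.3%, and 28.0%). No word is in more than 1 of these sets, but matches can overlap each other, and 1 CNC summit, at Cebpb, held letters of more than 1 factor.

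FOXA letters made up most of these matches. They were present at 10 CNC summits (24.4%, 13.8 to 39.3%), whereas they were found at 10.7% of all CNC peaks, 6.66% of flanking positions and 1 of 78 co-bound summits (1.28%, 0.227 to 6.91%, against 6.59% of all co-bound peaks). Cebpa had 4 of them, Foxa1 and Cebpb 2 each, and Onecut1 and Prox1 1 each. Within 50 bp of the summit 2 of 41 had them, against 5.29% of all CNC peaks, so the higher share was not seen next to the summit. Within 200 bp the count was 13 of 41, against 19.9%. With co-binding defined by summits within 100 bp or by reciprocal overlap it was 10 of 62 and 10 of 64, against 9.12 and 9.53%, and in windows of 100 kb on either side it was 11 of 62, against 10.7%. HNF4 letters were at 0 of 41 CNC summits (upper limit of the interval 8.57%) and at 3.35% of all CNC peaks. C/EBP letters were at 1 CNC summit (2.44%, 0.432 to 12.6%), at Cebpb, against 11.7% of all CNC peaks, and at 7 of 78 co-bound summits (8.97%, 4.42 to 17.4%), against 7.83% of all co-bound peaks. ONECUT letters were at 4 (9.76%, 3.86 to 22.5%), at Hnf4a, Cebpa, Cebpb and Prox1, against 6.76%. A match of letters is not a measured site of binding.

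**Figure D5:**
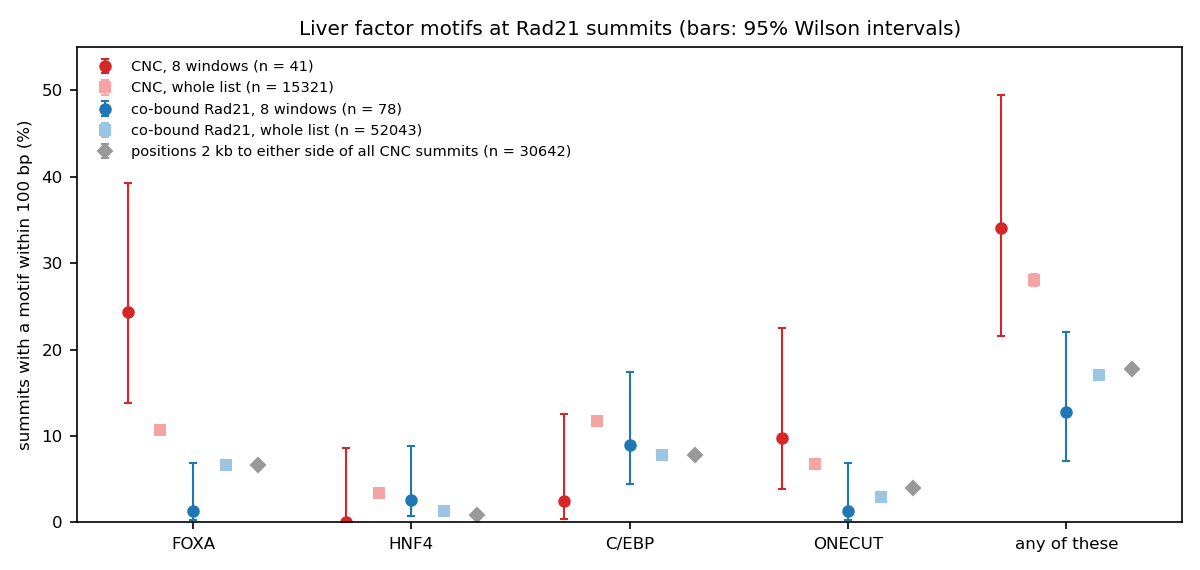
Share of summits with motif letters within 100 bp (vertical, %) by factor, for CNC and co-bound Rad21 peaks in the 8 windows and in the whole list and for positions 2 kb from CNC summits, with 95% Wilson intervals as bars. The FOXA share is 24.4% at the 41 CNC peaks of the windows and 10.7% at all CNC peaks, and the interval for HNF4 reaches 0.

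Windows of other liver transcription factor genes were examined in the same way. Of 24 named, 23 were found (Cebpd was not analysed here), among them the nuclear receptor genes Ppara and Nr5a2. Their windows held a median of 14 Rad21 peaks and 4.0 CNC peaks, against 16 and 5.5 at the 8 genes. A CNC peak was present at 22 of 23, and one within 2 kb of a start at 10 of 23 (43.5%). Rad21 lay within 2 kb of a start at 22 of 23 and CTCF at 21 of 23, and an intra-TAD anchor lay in the window of 20 of 23 (87.0%). Nr5a2 had 17 CNC peaks, Ppara 11 and Gata4 8, whereas Nr2f1 had 0. Their summed Rad21 peaks were CNC in 33.0%, compared with 34.5% at the 8 genes. The window of Cebpg overlaps that of Cebpa, so these lists are not fully separate.

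A list of 23 genes for factors of other lineages, such as Pdx1 of pancreas, Myod1 of muscle and Sox10 of neural crest (Spi1 was not analysed here), had a median of 4.0 Rad21 and 0 CNC peaks. CNC peaks were present at 7 of the 23 (30.4%), and 11.2% of their summed Rad21 peaks were CNC. An anchor pair of convergent direction enclosed 14 of 23 liver factor genes (60.9%) and 12 of 23 genes of other lineages (52.2%).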

How the data were processed

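Nuclei of mouse livers were crosslinked and sonicated, and CTCF (4 libraries) or Rad21 (3 libraries) was immunoprecipitated. According to the methods of the study, reads were merged by factor and mapped to mm9 with Bowtie2, and the authors called peaks from unique reads with MACS2, leaving out blacklisted regions and any peak composed only of PCR duplicates. The deposited score is 10 times the −log10 of the peak's q-value, cut to a whole number, and the authors' score of the CTCF motif comes from FIMO. The deposited fold is the ratio of summit fragments to the local background, with 1 added to both. The deposited −log10 p-value is that of a Poisson distribution with this background. Columns of no header were named from the study's description. The lists hold no reads per library, for which the study gives only a range, so what each library adds to a pooled peak is not known.

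Fragments at the summit and local background were recovered together from fold and −log10 p, and were whole (within 0.1) at 99.997% of peaks in each list, with 2 exceptions each. Chromosome names and ends fitted NCBIM37 (mm9), with 0 peaks past a chromosome end, and genes were those of GENCODE vM1. Peaks sharing 1 bp were called co-bound. Percentiles are mid-ranks over 22367 protein-coding genes. In each window the strongest CTCF, co-bound Rad21 and CNC peak, the Rad21 peak nearest to a start, and every anchor are named. Of the CNC sequences nearest to a start, those over 5 kb away without motif letters are not printed. The CTCF motif was learnt from 2000 TAD anchors of odd-numbered autosomes, and on even-numbered ones its best match had the deposited strand at 98.8% of 2683. The 8 genes and the other lists were chosen with earlier results of these data known. No test was run, since the lists are pooled. Overlap, window, recovery and motif steps were tested on simulated data. The tools were samtools 1.23.1 and Python 3.11.15 with pysam 0.24.0, pandas 2.3.3, SciPy 1.17.1, NumPy 2.4.6 and Matplotlib 3.10.9.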

Additional observations from a re-analysis of the deposited data

How the results depend on the processing

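No paired analysis was possible because the lists are pooled and no result comes from a test, and for the same reason no library could be left out. Of 44 comparisons with another setting, 26 stayed within 1.5 times the count or within the interval of the share, and 18 moved. Windows of 10 kb and 100 kb on either side held 58 and 182 CTCF peaks, 57 and 186 Rad21 peaks and 37 and 121 classed sites, in place of 114, 119 and 74. The 10 kb window also lowered the CNC share from 34.5% to 26.3% and the share of CNC peaks with a liver factor motif from 34.1% to 13.3%, on 15 peaks, below the 28.0% of all CNC peaks. CNC peaks made up 53.8% of Rad21 peaks with a reciprocal overlap of 50%, 52.1% with summits within 100 bp, and 46.2% when only classed CTCF peaks counted (33.7, 36.8 and 34.9% of the whole list). CTCF peaks with Rad21 then made up 48.2% and 50% under the first 2 rules, below 58.2 and 55.5% of the whole list, so that the order of the windows and the whole list turned. Under these rules 4 of 8 genes had a CNC summit within 2 kb of a start (23.4 and 29.6% of all genes), and 1 did at a score of at least 100 (7.00%). A motif was found at 7.32% of CNC peaks within 50 bp (14.3% of all CNC peaks), where the order against the whole list also turned, and at 53.7% within 200 bp (47.8%). A convergent order of flanking anchors was found at 5 of 8 genes with intra-TAD anchors alone and at 6 with TAD anchors alone. The share over all protein-coding genes was computed for both kinds together only (31.9%). These counts therefore have no background to be set against. Of 56 counts of CNC peaks by gene under another setting, 25 moved by over 1.5 times, and at Foxa3, with 1 CNC peak, the count ran from 0 to 3. The causes of these changes were not tested.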
